A study of Arabidopsis thaliana with 15 samples.

Results

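The 6 libraries described here compare closed flower buds of the Arabidopsis thaliana mutant ref6C with those of wild-type plants (WT). They were chosen by the genotype in the sample titles, 3 libraries of each, out of 15 libraries and 5 genotypes in the series. Both groups are in the Col0 background, and the buds came from 5-week-old plants grown in long days with no treatment. WT carries no mutation named in the labels, and ref6C is named for the gene REF6. The sources used here do not say what kind of change ref6C makes in that gene, or whether the line carries others. The series also holds ref6-3, another REF6 mutant, whose 3 libraries are used below where ref6C is set against it. The remaining genotypes combine ref6C with mutations of ELF6 and JMJ13; their libraries entered only the shared estimate of spread. Replicates are numbered, but whether each is a separate harvest is not stated, and p-values therefore reflect the spread among libraries alone, which may be technical.

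REF6, ELF6 and JMJ13 are JmjC-domain enzymes that remove methyl groups from lysine 27 of histone H3. Polycomb group proteins place this mark on chromatin and keep genes silent in tissues where they are not needed. Removal of the mark by REF6 is known to accompany the activation of such genes during flowering and organ formation. REF6 has zinc fingers that bind DNA directly.

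Total RNA was sequenced from a stranded kit, and the values used are whole-number counts per gene. The 3 WT libraries held 29448998, 34140165 and 27106757 counts, and the 3 ref6C libraries 29370987, 29530251 and 27550895. Levels are given as CPM, counts scaled to library size, after TMM scaling. The bud label matched its markers: in the 6 libraries the floral organ gene AP3 lay between 169 and 176 CPM, PI between 254 and 278 CPM, and AG between 95 and 107 CPM. The endodermis gene CASP1 had 0 counts in WT and 5 in ref6C, and the seed oleosin gene OLEO1 had 0 and 11. In both genes ref6C replicate 3 was the highest library. The summed level of 20 photosynthesis genes was 22440 to 24310 CPM in WT and 23530 to 24620 CPM in ref6C. For 17 seed maturation genes it was 44.3 to 47.2 and 42.4 to 45.1 CPM, and for 12 root markers 18.8 to 20.6 and 15.9 to 16.2 CPM. Not all members of these lists were near 0. ABI5, with means of 41.9 CPM in WT and 37.7 CPM in ref6C, made up most of the seed sum. IRT1 (11.7 and 6.9 CPM) and COBL9 (6.72 and 7.44 CPM) made up most of the root sum.

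Replicate 3 of ref6C stood apart from the other libraries. It had a count in 29547 genes, whereas the other 14 libraries had a count in 25055 to 25712. Of 4048 genes with no count in any of the other 14 libraries, 1732 had at least 1 count in ref6C replicate 3. The other libraries each had between 21 and 56 such genes of their own. The counts behind them were few: the median gene had 2, the highest 48, and all 1732 together 5532, which is 201 CPM without scaling. Transposable element genes made up 1176 of them (67.9%), beside 41.0% of all genes at 0 in the other libraries. The share with a count rose with gene length, from 3.95% in the shortest of 4 length classes of these genes to 85.7% in the longest, and the 5 chromosomes held 305 to 367 each. The main counts of genes below are therefore also given without this library.

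**Figure D1:**
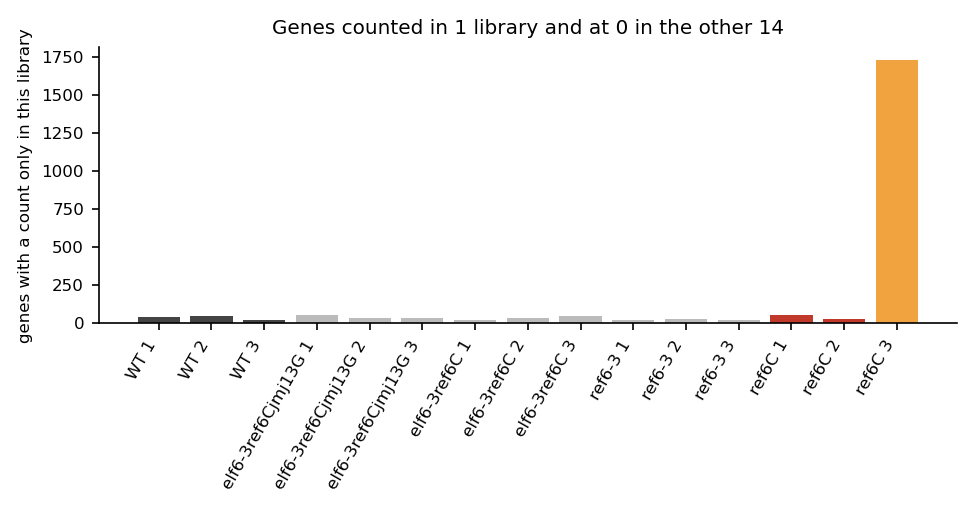
Number of genes (vertical axis) with at least 1 count in the library named on the horizontal axis and 0 in the other 14; orange is ref6C replicate 3, red the other ref6C libraries, dark grey WT and light grey the other genotypes. The orange bar stands at 1732 and the other bars lie between 21 and 56.

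Buds of ref6C differed from WT in many genes, most of them by a small amount, and the larger changes were mainly losses. Calls rest on edgeR's quasi-likelihood test, with a threshold of 0.05 on the p adjusted after Benjamini and Hochberg. Of 22411 tested genes 8705 were called (38.8%), with 4131 higher (18.4%) and 4574 lower (20.4%) in ref6C. Only 268 genes (1.20%) were called and at least 2-fold higher, whereas 749 (3.34%) were called and at least 2-fold lower. At 8-fold the counts were 32 higher and 126 lower. The libraries of the 2 groups did not overlap for 739 of the 749 lower genes and 234 of the 268 higher ones, beside 46.7% of all tested genes. The called genes were picked by test and fold change on these same libraries, so rare overlap among them is no separate support. The median log2 fold change over all tested genes was 0.0018.

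Leaving out ref6C replicate 3 took away a larger share of the genes called higher than of those called lower. Of 22586 genes then tested 33.8% were called, and 3507 (15.5%) were higher and 4135 (18.3%) lower, and 206 (0.912%) and 838 (3.71%) changed at least 2-fold. The 8-fold counts became 22 and 158. Of the 268 genes at least 2-fold higher, 191 were also so without the library (71.3% of 268 and 92.7% of 206). Of the 749 lower ones 714 were shared, which is 95.3% of the 749 and 85.2% of the 838. No gene was called in opposite directions by the 2 fits. Among the 77 genes that were no longer at least 2-fold higher, replicate 3 was over 2 times the higher of the other ref6C libraries in 41, and 16 were transposable element genes.

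**Figure D2:**
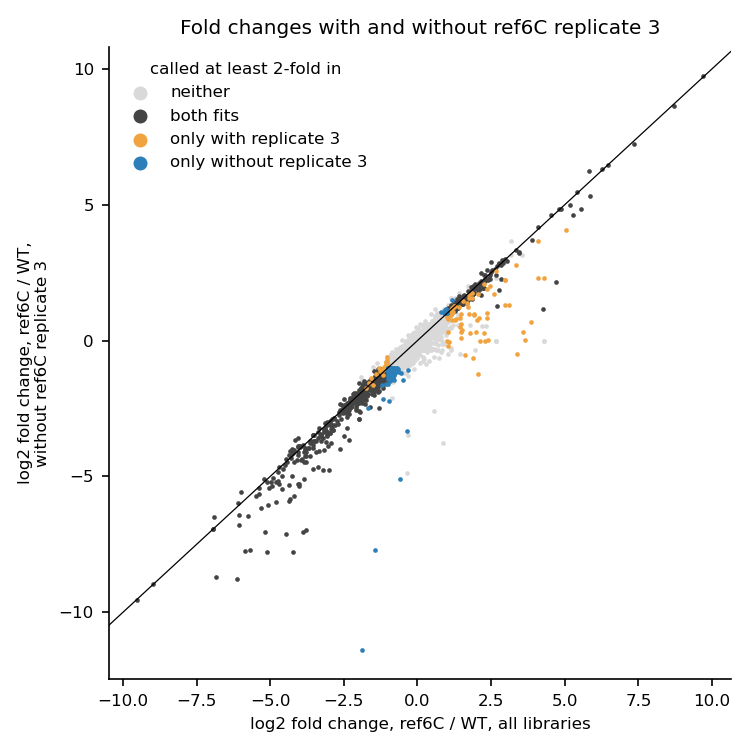
Each point is a gene, with its log2 fold change of ref6C over WT from all libraries on the horizontal axis and from the fit without ref6C replicate 3 on the vertical axis; the line marks equal values. Dark points are called and at least 2-fold in both fits, and the orange points, called so only with replicate 3, lie mostly on the right below the line.

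The size of a change went with the level of the gene. Among 2035 genes under 1 CPM in the higher group, 125 were at least 2-fold higher and 191 lower. Among 5881 genes at 1 to 10 CPM the counts were 115 and 443, and among 12279 genes at 10 to 100 CPM they were 28 and 104. Of 2216 genes at 100 CPM or more, 0 were at least 2-fold higher and 11 were at least 2-fold lower. Without ref6C replicate 3 the counts from the lowest to the highest class were 89, 94, 23 and 0 higher and 249, 470, 108 and 11 lower. Of the 749 lower genes, 306 stayed under 0.5 CPM in every ref6C library, and 125 of these averaged at least 1 CPM in WT. Without replicate 3 this held for 386 of 838 lower genes, 143 of them at 1 CPM or more in WT.

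REF6 transcript was at 68.4, 71.7 and 68.2 CPM in WT and at 35.8, 36.7 and 36.5 CPM in ref6C. The groups did not overlap, and every ref6C library held a clear REF6 signal. The log2 fold change was -0.94 ± 0.04 (SE), with an adjusted p of 1.9e-16 by edgeR's quasi-likelihood test. Leaving out any library gave -0.95 to -0.91. JMJ13 fell slightly, from 24.4, 25.4 and 24.6 to 22.3, 21.0 and 22.9 CPM (-0.17 ± 0.04, adjusted p = 0.0026 by edgeR). ELF6 was at 61.8, 61.6 and 60.5 CPM in WT and 57.4, 56.4 and 56.7 CPM in ref6C. Its log2 fold change of -0.11 passed the test with an adjusted p of 0.022 in edgeR and did not without ref6C replicate 3 (0.053). Of 19 tested JmjC-domain genes 1 was called higher and 6 lower (5.26% and 31.6%, beside 18.4% and 20.4% of all genes). Without replicate 3 the numbers were 1 and 5. Both counts of lower genes include REF6 itself. JMJ30, a demethylase tied to the circadian clock, rose by 0.23, and JMJ18, a demethylase of histone H3 lysine 4, fell by 0.24 on the log2 scale.

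Genes of the Polycomb system itself changed little. Of 24 tested Polycomb and partner genes 1 was called higher and 5 lower (20.8%, beside 20.4% of all genes), and 1 and 3 without ref6C replicate 3. The median log2 fold change was 0.01. The catalytic subunit genes CLF (-0.04) and SWN (-0.01) were not called. ULT1, a trithorax-type factor that counters Polycomb silencing, fell from 30.79, 31.13 and 29.97 CPM to 23.8, 22.4 and 24.4 CPM. Its log2 fold change was -0.38 ± 0.04. EMF1, a partner of Polycomb complexes, rose by 0.27, and the ubiquitin ligase gene BMI1A fell by 0.25.

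The largest losses were of genes at low to moderate levels in WT that were at or near 0 in ref6C. The 12 with the largest falls in both fits are taken here. Their choice also required a call in both fits and groups that did not overlap. AT5G39870, of a plant family with a DUF1216 domain, was at 2.23, 2.22 and 2.00 CPM in WT and had no count in any ref6C library. That makes it at least 62-fold lower, with 3 counts over the group as the floor, which covers counting error only. The cytochrome P450 gene CYP76C3 was at 1.75, 1.90 and 1.74 CPM in WT and at 0, 0 and 0.0362 CPM in ref6C. With 1 count in ref6C, the ratio of 156 has a 95% exact counting interval of 27.7 to 6210. AT1G51250, a relative of self-incompatibility protein S1, likewise had 1 count in ref6C and a ratio of 163 (28.9 to 6472).

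GH9A4, a glycosyl hydrolase of the cellulase family, was at 7.86, 8.62 and 7.16 CPM in WT and at 0.102, 0.0338 and 0.217 CPM in ref6C. All 3 ref6C libraries were far below all 3 of WT, and replicate 3 was the highest of them. The log2 fold change was -6.04 ± 0.31 (adjusted p = 9.0e-15 by edgeR) and -6.78 without ref6C replicate 3. GPAT5, an acyltransferase of suberin synthesis, was at 4.49, 4.36 and 4.32 CPM in WT and at 0.0341, 0 and 0.217 CPM in ref6C. Here too replicate 3 held most of the ref6C signal, and the log2 fold change of -5.69 became -7.69 without it. AT3G54800, a lipid-binding protein with a pleckstrin homology domain, was at 5.46, 6.99 and 6.87 CPM in WT and at 0.0341, 0.203 and 0.181 CPM in ref6C (-5.50 ± 0.29). The others were EXPA24 (an expansin), CYP71B18, AT1G60740 (thioredoxin family), AT3G17060 (pectin lyase-like), AT3G21570 and AT1G11765. Each of the 12 was also at or below 0.23 CPM in every ref6-3 library.

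The 12 largest gains, chosen in the same way, were of genes under 1 CPM in every WT library. SAG12, a cysteine protease gene known as a marker of leaf senescence, had no count in WT. It was at 4.16, 3.24 and 3.30 CPM in ref6C, at least 109-fold higher with the same floor, and at 2.021, 1.275 and 1.642 CPM in ref6-3. AT3G32240, a transposable element gene, also had no count in WT and was at 2.08, 1.32 and 1.99 CPM in ref6C, at least 54.7-fold higher. In ref6-3 it was at 0, 0 and 0.0382 CPM. The transposable element gene AT5G35935 was at 0.270, 0.263 and 0.363 CPM in WT and at 8.24, 8.99 and 8.87 CPM in ref6C. All 3 ref6C libraries were high, replicate 3 no more than the others (log2 fold change 4.86 ± 0.15, adjusted p = 7.9e-20 by edgeR).

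NATA1, an acetyltransferase that acts on ornithine, was at 0, 0.0292 and 0.0726 CPM in WT, at 2.79, 3.75 and 3.37 CPM in ref6C and at 0 in every ref6-3 library. With 3 counts in WT the ratio was 101 (34.1 to 491). RAP2.6, an AP2-type transcription factor, was at 0.101, 0.175 and 0.0726 CPM in WT, at 1.16, 1.22 and 1.67 CPM in ref6C and at 0 in ref6-3. These 2 genes were thus detected in WT and ref6C and not in ref6-3. The nitrilase gene NIT2, whose enzyme can make auxin from indole-3-acetonitrile, was at 0.641, 0.731 and 0.908 CPM in WT and 6.23, 5.61 and 4.67 CPM in ref6C (log2 fold change 2.86 ± 0.16). The others were AT2G38380 (a peroxidase, 5.42), SAG13 (3.04), LAS1 (lanosterol synthase, 2.90), AT2G30766, AT1G47395 (3.35) and AT1G47400 (2.78). For SAG12, AT2G38380, LAS1, NIT2, AT2G30766, AT1G47395 and AT1G47400 every ref6-3 library lay above every WT library and below every ref6C library. AT5G35935 was at 0.0374, 0.0689 and 0.0382 CPM in ref6-3, below WT, and for SAG13 the ref6-3 and WT libraries overlapped.

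**Figure D3:**
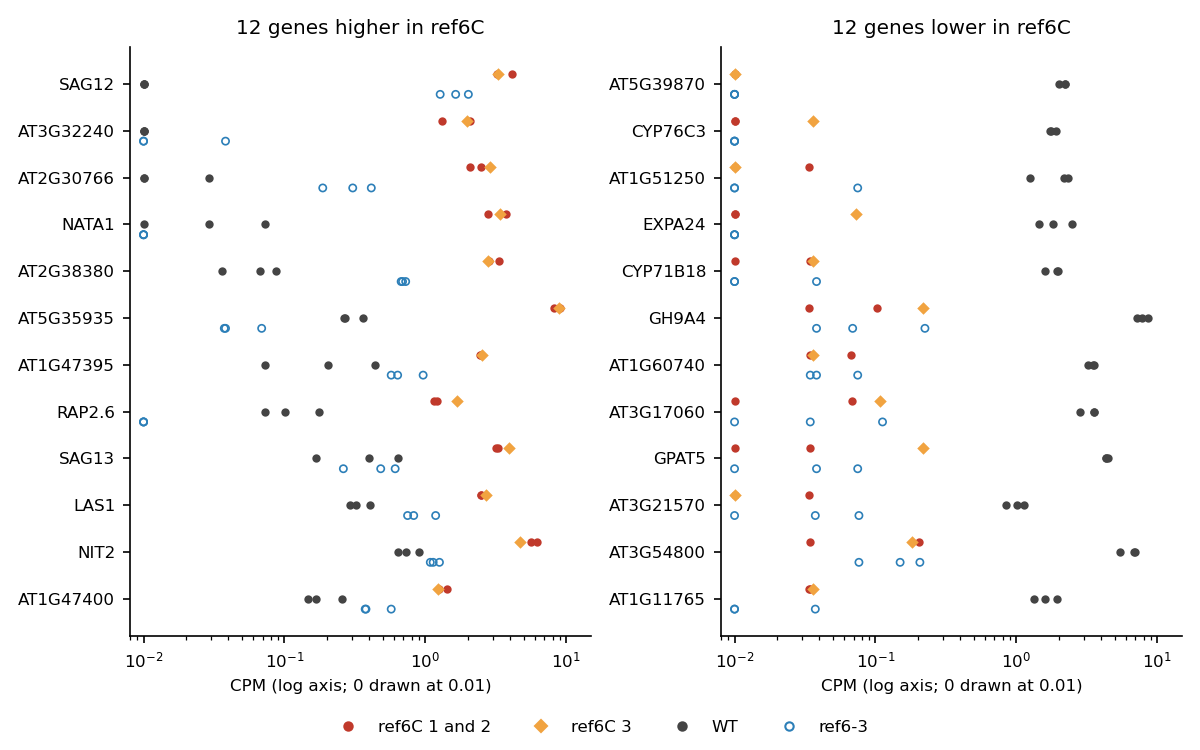
CPM on a logarithmic horizontal axis, with 0 drawn at 0.01, for the 12 genes with the largest gains (left) and the 12 with the largest losses (right); each point is a library. Red points are ref6C replicates 1 and 2, orange diamonds ref6C replicate 3, dark points WT and blue circles ref6-3. In each row the ref6C points lie apart from the WT points, which the choice of these genes required. For AT5G39870 all 3 ref6C libraries are at 0.

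The 250 bases before the start of a gene are shown for 4 of these genes: the 2 losses that bear on the motif counts below, one with a match and one without a read in ref6C, and a neighbouring pair of gains. They were read from the RefSeq genome, build TAIR10.1. Capitals mark a match to 1 of the 4 words CTCTGCTC, CTCTGCTT, CTCTGTTC and CTCTGTTT, searched on both strands, which make up the motif known for the REF6 zinc fingers. The windows are chr3:20285820-20286069 (plus strand) for AT3G54800, chr5:15970047-15970296 (minus strand) for AT5G39870, chr1:17382748-17382997 (plus strand) for AT1G47395 and chr1:17385457-17385706 (plus strand) for AT1G47400.
AT3G54800: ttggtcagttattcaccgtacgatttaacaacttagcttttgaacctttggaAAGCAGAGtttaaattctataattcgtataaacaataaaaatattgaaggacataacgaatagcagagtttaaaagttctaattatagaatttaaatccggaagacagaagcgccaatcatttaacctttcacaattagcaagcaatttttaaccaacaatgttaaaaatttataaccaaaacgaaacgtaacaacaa
AT5G39870: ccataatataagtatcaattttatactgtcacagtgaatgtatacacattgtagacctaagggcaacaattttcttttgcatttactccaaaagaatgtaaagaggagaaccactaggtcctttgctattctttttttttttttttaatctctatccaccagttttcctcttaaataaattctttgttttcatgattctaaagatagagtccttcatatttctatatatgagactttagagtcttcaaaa
AT1G47395: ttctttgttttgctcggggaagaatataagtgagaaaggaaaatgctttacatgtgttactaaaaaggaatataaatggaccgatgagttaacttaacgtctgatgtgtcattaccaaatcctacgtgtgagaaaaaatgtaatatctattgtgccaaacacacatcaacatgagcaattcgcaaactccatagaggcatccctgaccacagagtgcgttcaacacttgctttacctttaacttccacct
AT1G47400: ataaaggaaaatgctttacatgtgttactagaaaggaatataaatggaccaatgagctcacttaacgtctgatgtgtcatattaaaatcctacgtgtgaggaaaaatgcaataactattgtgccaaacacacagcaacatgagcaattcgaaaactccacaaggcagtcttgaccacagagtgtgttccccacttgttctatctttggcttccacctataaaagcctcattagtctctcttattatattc

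In AT3G54800 the match, on the minus strand, begins 198 bases before the gene. It was the only match among the 12 largest losses, and the 12 largest gains had 0. A word was present in the windows of 1268 of 22327 tested genes (5.68%), in 60 of 747 genes at least 2-fold lower (8.03%) and in 7 of 268 at least 2-fold higher (2.61%). Without ref6C replicate 3 a word was present in 71 of 835 and 9 of 206 windows, beside 1285 of 22502 (5.71%) for all genes tested. These counts describe letters in a window and not binding.

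The windows of AT1G47395 and AT1G47400 are much alike: 194 bases were identical in an alignment of 283 columns (68.6%), and the longest shared run was 28 bases. The genes lie on the same strand with 1876 bases between them. AT1G47395 was at 0.438, 0.205 and 0.0726 CPM in WT and at 2.45, 2.50 and 2.54 CPM in ref6C. AT1G47400 was at 0.169, 0.146 and 0.254 CPM in WT and at 1.26, 1.42 and 1.23 CPM in ref6C. Neither pair of groups overlapped, and both genes were called without ref6C replicate 3 as well. The sources used here do not say how reads that fit both genes were counted. AT2G30766 was at 0, 0.0292 and 0 CPM in WT and at 2.49, 2.06 and 2.90 CPM in ref6C (ratio 226, 40.1 to 8965, with 1 count in WT). It overlaps AT2G30760 and the camalexin gene CYP71A13 on the other strand, and whether the counting used strand is not given. CYP71A13 also rose, from 0.169, 0.175 and 0.327 CPM in WT to 1.567, 1.385 and 1.376 CPM in ref6C (log2 fold change 2.70 ± 0.26).

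The genes that build the pollen wall fell together in ref6C. Of 22 tested genes of exine and sporopollenin formation 19 were called lower (86.4%, beside 20.4% of all genes) and 0 higher, with or without ref6C replicate 3. Leaving out any library gave 18 or 19. The median log2 fold change was -0.47, and none of the 22 changed as much as 2-fold. Their summed level was 4049 to 4134 CPM in the WT libraries, 2860 to 2971 CPM in ref6C and 4004 to 4046 CPM in ref6-3. In bulk buds, fewer cells of a type and less RNA per cell cannot be told apart.

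MS2, a fatty acyl reductase of sporopollenin synthesis, was at 380, 404 and 400 CPM in WT and at 206, 191 and 198 CPM in ref6C. The log2 fold change was -0.996 ± 0.03 (adjusted p = 1.9e-20 by edgeR), and in ref6-3 the level was 363 to 373 CPM. CYP704B1, a fatty acid hydroxylase of the same pathway, was at 148, 158 and 154 CPM in WT and 102, 94.1 and 92.6 CPM in ref6C. ABCG26, the transporter that exports wall precursors from the tapetum, was at 144, 151 and 151 CPM in WT and 96.8, 91.0 and 93.6 CPM in ref6C. In each of these genes the 3 ref6C libraries lay close together and below WT. CYP703A2, another hydroxylase of the pathway, fell by 0.60, the acyl-CoA synthetase ACOS5 by 0.54 and the lipid-transfer protein ATA7 by 0.57 on the log2 scale. CALS5, which makes the callose of the microspore wall, fell by 0.47. DEX1 (-0.05), NPU (-0.02) and TEK (-0.07), which act in laying down the primexine and inner exine, were not called. ABCG26 and DEX1 overlap genes on the other strand.

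Regulators of the tapetum, the cell layer that feeds the pollen, also fell, by less. Of 21 tested regulators 12 were called lower (57.1%, beside 20.4% of all genes) and 0 higher, 11 and 0 without ref6C replicate 3, with a median of -0.18. Their summed level was 1005 to 1046 CPM in WT and 907 to 934 CPM in ref6C. MS1, a PHD-finger factor of late tapetum development, was at 33.0, 32.8 and 32.2 CPM in WT and at 16.6, 17.1 and 15.5 CPM in ref6C (-0.996 ± 0.04). The bHLH genes AT2G31210, AT2G31220 and AT1G06170 fell by 0.50, 0.45 and 0.31. DYT1, an early regulator, was at 1.99, 1.87 and 2.00 CPM in WT and at 1.06, 1.55 and 0.869 CPM in ref6C (-0.74 ± 0.19, adjusted p = 0.0027 by edgeR). It was not called by DESeq2 without ref6C replicate 3 (adjusted p = 0.113). AMS, a bHLH factor that acts downstream of DYT1, fell by 0.20; it overlaps a gene on the other strand. SPL, needed to form the sporogenous cells, fell by 0.32. MYB33 (-0.02) and MYB65 (-0.10), targets of a microRNA, were not called, nor was the receptor gene BAM1 (0.00).

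Genes of mature pollen and pollen tubes fell unevenly. Of 39 tested genes, from a list of 41, 27 were called lower and 1 higher, also without ref6C replicate 3. These are 69.2% and 2.56%, beside 20.4% and 18.4% of all genes. Of the 39, 11 were at least 2-fold lower, and 12 without that library, beside 3.34% and 3.71% of all genes. The median log2 fold change was -0.41. The summed level was 1012 to 1069 CPM in WT, 808 to 830 CPM in ref6C and 360 to 381 CPM in ref6-3.

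The deepest falls were of genes at low level in these buds. STP11, a sugar transporter, was at 1.85, 1.96 and 1.82 CPM in WT and at 0.0341, 0.0676 and 0.0362 CPM in ref6C (-5.22 ± 0.41). BCP1, a pollen protein, was at 3.00, 2.95 and 2.00 CPM in WT and at 0.102, 0.236 and 0.217 CPM in ref6C (-3.82 ± 0.31). In both genes the groups did not overlap. Next came ANX2, a receptor kinase that keeps pollen tubes from bursting, at 2.09, 2.54 and 2.29 CPM in WT and at 0.273, 0.203 and 0.435 CPM in ref6C (-2.93 ± 0.28). Its relative ANX1 was at 13.96, 14.62 and 14.24 CPM in WT and at 11.3, 12.4 and 11.6 CPM in ref6C (-0.28 ± 0.07). Of the pollen receptor kinases, PRK5 fell by 2.67, PRK3 by 1.24, PRK4 by 1.10 and PRK2 by 0.62 on the log2 scale. The pollen extensin-like genes AT4G33970 and AT2G15880, which hold leucine-rich repeats, fell by 1.97 and 1.05. ARO1, an armadillo protein of tube tip growth, was at 2.90, 3.48 and 3.20 CPM in WT and at 1.36, 1.49 and 0.724 CPM in ref6C. Its lowest library was replicate 3, and the log2 fold change of -1.41 was -1.17 without it.

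The pectin methylesterase genes of the pollen tube wall, among the most abundant of the list, fell by different amounts. VGDH1 was at 41.1, 44.4 and 37.5 CPM in WT and at 19.9, 18.5 and 21.8 CPM in ref6C (-1.03 ± 0.06). VGD1, its neighbour on chromosome 2, was at 316, 318 and 312 CPM in WT and at 262, 253 and 260 CPM in ref6C (-0.29 ± 0.03). PPME1 fell by 0.35. In ref6-3 VGD1 was at 80.2 to 86.8 CPM, well below both. Genes of the pollen cytoskeleton stayed near their WT level: PRF4 (0.05), PRF5 (-0.04), ADF7 (-0.07), ADF10 (0.01) and ACT4 (-0.10) were not called. AGL65, a MADS-box factor of pollen maturation, rose from 6.37, 6.34 and 6.03 CPM to 8.21, 8.41 and 7.53 CPM (0.37 ± 0.10), while its partner AGL66 fell by 0.60.

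Of 8 tested sperm cell genes 1 was called lower (12.5%, beside 20.4% of all genes) and 0 higher, with or without ref6C replicate 3. The called gene was PCR11. It was at 0.978, 1.17 and 1.24 CPM in WT and at 0.0681, 0.135 and 0.217 CPM in ref6C (-2.98 ± 0.37), and at 0 in ref6-3. MGH3, a histone H3 of the male gametes, was at 3.14, 2.81 and 2.76 CPM in WT and at 2.45, 2.87 and 2.83 CPM in ref6C, and was not called (-0.10). Of 22 meiosis genes 2 were called higher and 5 lower (9.09% and 22.7%, beside 18.4% and 20.4% of all genes), with or without replicate 3. MMD1, a PHD-finger factor of male meiosis, was at 3.10, 3.54 and 3.49 CPM in WT and at 1.942, 2.095 and 2.282 CPM in ref6C (-0.68 ± 0.12). The axis gene ASY1 fell by 0.51; it overlaps a gene on the other strand. The recombinase gene DMC1 (-0.12) was not called.

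Of 13 tested pollen coat genes 6 were called higher and 2 lower, and 5 and 2 without ref6C replicate 3, with a median of 0.07. With that library these are 46.2% and 15.4%, beside 18.4% and 20.4% of all genes. The oleosin-type coat protein gene GRP20 was at 181, 173 and 169 CPM in WT and at 212, 232 and 230 CPM in ref6C (0.37 ± 0.04). GRP19 rose by 0.29 and GRP14 by 0.30, and the lipase gene EXL4 by 0.16. CER3, of wax synthesis, fell from 312, 332 and 323 CPM to 272, 262 and 258 CPM (-0.29 ± 0.03).

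**Figure D4:**
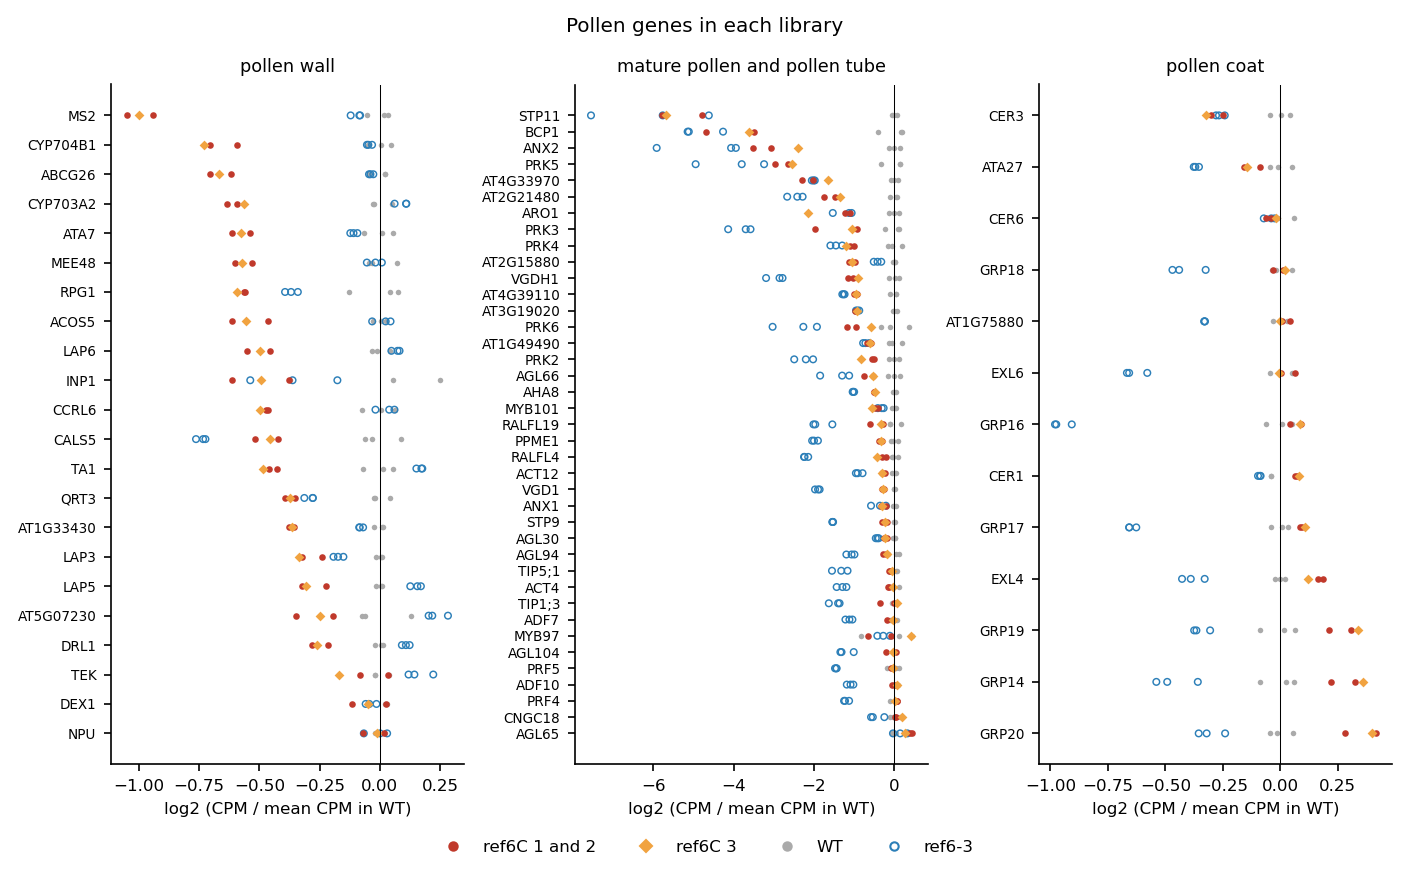
Each row is a gene of the pollen wall (22 genes), mature pollen and pollen tube (39) or pollen coat (13), and each point a library, placed by log2 of its CPM over the mean CPM of WT, with 0 drawn at 0.01 CPM. Red points and orange diamonds are ref6C, grey points WT and blue circles ref6-3. The ref6C points lie left of the grey ones for 19 called wall genes, with MS2 at the top, whereas the blue circles of most pollen genes lie further left than the red ones.

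Set against the other REF6 mutant, ref6C was lower in the wall and higher in the pollen genes. Of all 22411 tested genes 33.9% were called, 3844 (17.2%) higher and 3759 (16.8%) lower in ref6C than in ref6-3. At least 2-fold, 782 (3.49%) were higher and 222 (0.991%) lower. Without ref6C replicate 3 the counts were 3119 (13.8%) and 3539 (15.7%), and 701 (3.10%) and 264 (1.17%) at least 2-fold. Of the pollen wall genes 1 was higher and 18 lower, with a median of -0.45, and of the tapetum regulators 0 and 14. Without replicate 3 these counts were 1 and 18, and 0 and 13. MS2 was 0.90 log2 units lower in ref6C than in ref6-3 (adjusted p = 8.9e-20 by edgeR). Of the mature pollen genes 26 were higher and 2 lower (25 and 1 without ref6C replicate 3), with a median of 0.92. All 11 pollen coat genes called were higher in ref6C, also without that library. These values come from the direct contrast of the 2 mutants.

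Jasmonate drives the last steps of stamen growth through the factors MYB21, MYB24 and MYB108. Of 29 tested jasmonate and stamen MYB genes 9 were called higher (31.0%, beside 18.4% of all genes) and 13 lower (44.8%, beside 20.4%), 9 and 12 without ref6C replicate 3. Of the 29, 5 were at least 2-fold lower, beside 3.34% of all genes. MYB21 was at 11.5, 11.5 and 12.5 CPM in WT and at 5.01, 4.02 and 4.78 CPM in ref6C (-1.36 ± 0.12). MYB24 was at 5.46, 5.23 and 5.81 CPM in WT and at 1.47, 1.76 and 1.52 CPM in ref6C (-1.79 ± 0.17). In ref6-3 MYB21 was at 0 to 0.345 CPM and MYB24 at 0 to 0.103 CPM, below all ref6C libraries. MYB21 was 4.82 and MYB24 4.602 log2 units higher in ref6C than in ref6-3 (adjusted p = 6.4e-14 and 4.8e-10 by edgeR). Both overlap genes on the other strand.

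Other members of the list went both ways. TPS21, a sesquiterpene synthase of floral scent known as a target of MYB21, was at 4.32, 3.92 and 4.03 CPM in WT and at 0.545, 0.439 and 0.398 CPM in ref6C (-3.13 ± 0.23). MYB108 fell by 1.73 and the repressor gene JAZ7 by 1.38. The repressor genes JAZ1, JAZ9 and JAZ8 fell by 0.46, 0.27 and 0.74, whereas JAZ3 rose by 0.19. Of the biosynthesis genes, AOC2, an allene oxide cyclase, rose from 10.96, 11.87 and 11.48 CPM to 16.5, 17.3 and 16.9 CPM (0.56 ± 0.05). AOC4 rose by 0.27, LOX2 by 0.28, LOX4 by 0.24 and the methyltransferase gene JMT by 0.34. In contrast, LOX3 fell by 0.55 and JAR1, of the GH3 family, by 0.27. The vegetative storage protein genes VSP1 and VSP2 rose by 0.35 and 0.38. OPR3 (-0.07) and AOS (0.09) were not called. The receptor gene COI1 (-0.04) was not called.

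**Figure D5:**
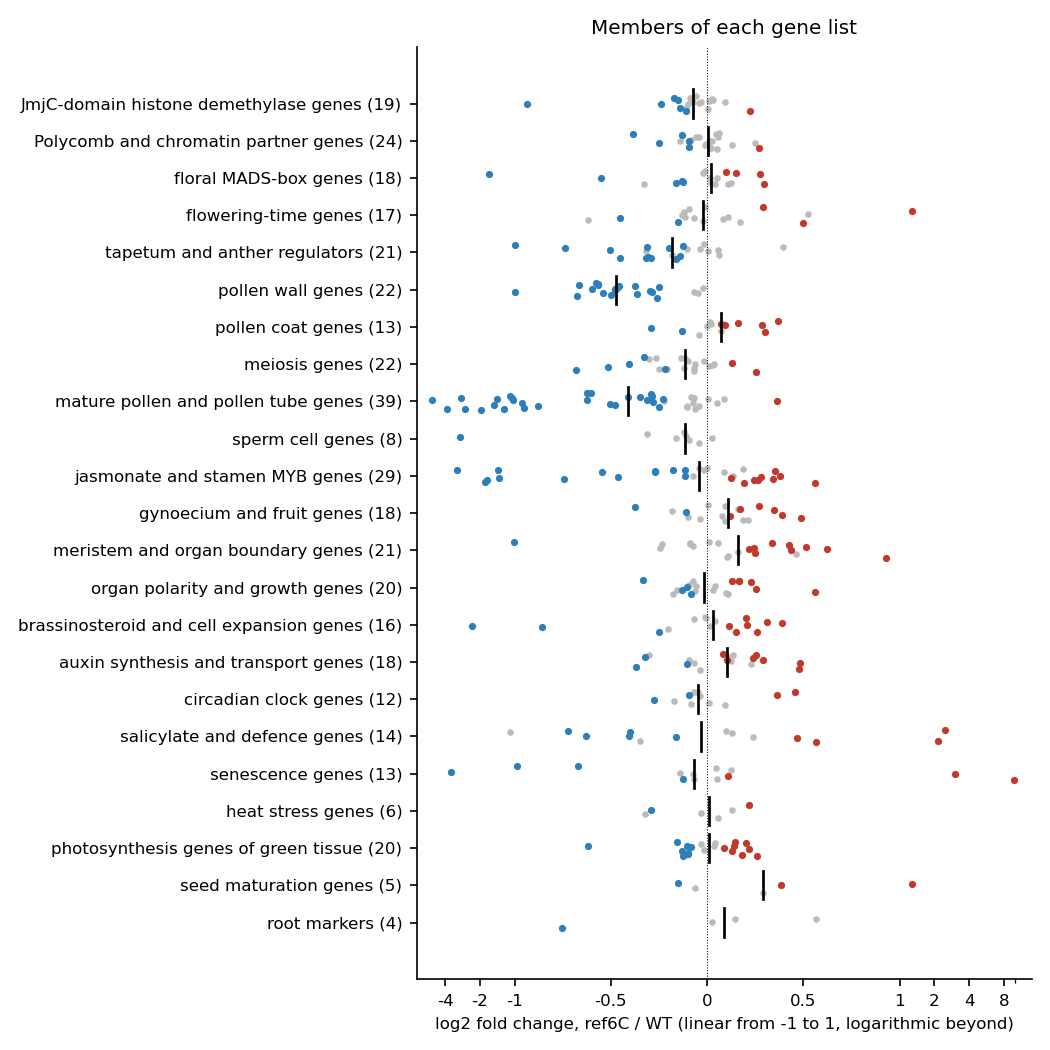
Log2 fold change of ref6C over WT for the tested members of each gene list, with their number in brackets; the horizontal axis is linear between -1 and 1 and logarithmic beyond. Red points are called higher, blue called lower and grey not called, and the black bar is the list's median. The pollen wall list holds 19 blue points and 0 red ones, and its median lies at -0.47.

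Most genes that set floral organ identity changed little. Of 18 tested floral MADS-box genes 4 were called higher and 5 lower (3 and 4 without ref6C replicate 3), with a median of 0.02. These are 22.2% and 27.8%, beside 18.4% and 20.4% of all genes. AGL18, a repressor of flowering, was at 23.4, 23.3 and 24.7 CPM in WT and at 7.83, 7.64 and 7.28 CPM in ref6C (-1.65 ± 0.06, adjusted p = 6.3e-18 by edgeR). Its relative AGL15 was at 10.3, 10.5 and 9.88 CPM in WT and at 6.10, 8.18 and 6.66 CPM in ref6C (-0.55 ± 0.09). AP1, of sepals and petals, rose from 150, 156 and 153 CPM to 187, 181 and 189 CPM (0.27 ± 0.03), and AGL6 rose by 0.30. AP3 (0.02) and PI (0.05), of petals and stamens, were not called, whereas AG, of stamens and carpels, and SEP3 each fell by 0.13.

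Of 17 tested flowering-time genes 3 were called higher and 2 lower, and 3 and 3 without ref6C replicate 3. With that library both shares lay below those of all genes, 18.4% higher and 20.4% lower. MAF5, a relative of the flowering repressor FLC, was at 7.82, 7.54 and 8.35 CPM in WT, at 17.8, 20.5 and 19.0 CPM in ref6C and at 0.636, 0.586 and 0.878 CPM in ref6-3. The 2 mutants thus lay on opposite sides of WT for this gene. It was 1.28 ± 0.08 log2 units above WT in ref6C, and 4.77 above ref6-3 (adjusted p = 1.9e-21 by edgeR). Its neighbours in the MAF cluster, MAF2 (0.08), MAF3 (-0.02) and MAF4 (-0.12), were not called. FD, a bZIP partner of the flowering signal FT, fell by 0.45, and SOC1 (-0.09) and LFY (-0.13) were not called.

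More meristem and organ boundary genes rose than fell. Of 21 tested 9 were called higher (42.9%, beside 18.4% of all genes) and 1 lower, 8 and 2 without ref6C replicate 3, with a median of 0.16. LSH3 was at 5.50, 6.17 and 4.29 CPM in WT and at 6.98, 9.26 and 8.58 CPM in ref6C (0.62 ± 0.11). LSH4, of the same family, rose by 0.44. The KNOX homeobox genes of the meristem rose too, KNAT2 by 0.43, KNAT1 by 0.25 and STM by 0.22. STM was at 42.3, 42.6 and 40.4 CPM in WT and at 49.6, 47.1 and 49.2 CPM in ref6C, with no overlap. CUC1, which separates neighbouring organs, went the other way, from 3.00, 3.22 and 3.16 CPM to 1.57, 1.49 and 1.63 CPM (-1.0016 ± 0.16). Its relatives CUC2 (0.05) and CUC3 (-0.07) were not called. LOB was called only with replicate 3, which stood at 4.49 CPM against 2.96 and 3.08 (adjusted p = 0.0078 with it and 0.111 without, by edgeR).

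Of 18 tested gynoecium and fruit genes 6 were called higher (33.3%, beside 18.4% of all genes) and 2 lower, also without ref6C replicate 3. ALC, a bHLH factor of fruit opening, was at 48.4, 47.9 and 48.3 CPM in WT and at 63.4, 61.4 and 59.3 CPM in ref6C (0.35 ± 0.03). HEC3, of the transmitting tract, rose by 0.49 and NGA4, of the style, by 0.39, whereas its relative NGA1 fell by 0.38. Of 20 tested organ polarity and growth genes 6 were called higher and 4 lower, beside the same 18.4% and 20.4%, and 5 and 3 without replicate 3. AS1, which limits KNOX genes in organs, rose by 0.26, and its partner AS2 fell by 0.33.

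Brassinosteroid and auxin genes held called members in both directions. Of 16 tested brassinosteroid and cell expansion genes 7 were called higher (43.8%, beside 18.4% of all genes) and 3 lower (18.8%, beside 20.4%), 6 and 4 without ref6C replicate 3. The largest change was that of XTH22, a wall enzyme that cuts and rejoins xyloglucan, at 6.58, 7.08 and 5.78 CPM in WT and 1.499, 1.183 and 1.159 CPM in ref6C (-2.34 ± 0.13). DWF4, of a rate-limiting step of brassinosteroid synthesis, was at 11.6, 11.8 and 12.2 CPM in WT and at 6.404, 6.285 and 6.953 CPM in ref6C (-0.86 ± 0.07). The later enzyme genes CPD and BR6OX2 rose by 0.26 and 0.31. EXPA8, an expansin that loosens cell walls, rose by 0.39, and was 1.59 log2 units higher than in ref6-3 (adjusted p = 3.7e-18 by edgeR). Of 18 auxin synthesis and transport genes 7 were called higher (38.9%, beside 18.4%) and 3 lower (16.7%, beside 20.4%), 7 and 2 without replicate 3. TAA1, an aminotransferase of auxin synthesis, was at 36.9, 36.5 and 34.3 CPM in WT and at 50.3, 49.3 and 51.0 CPM in ref6C (0.48 ± 0.05). The efflux carrier PIN4 rose by 0.48, and the influx carrier AUX1 fell by 0.32.

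Of 13 tested senescence genes 3 were called higher and 4 lower (23.1% and 30.8%, beside 18.4% and 20.4% of all genes). Without ref6C replicate 3 the numbers were 2 and 4. SEN1, a gene induced by darkness and age, was at 8.33, 8.21 and 8.90 CPM in WT and at 0.715, 0.811 and 0.616 CPM in ref6C (-3.56 ± 0.13). In ref6-3 it was at 7.63, 6.93 and 8.21 CPM, and the difference between the mutants was -3.40 (adjusted p = 1.4e-17 by edgeR). SAG101, a lipase-like partner of defence signalling, fell from 10.52, 10.23 and 10.13 CPM to 5.18, 5.24 and 5.18 CPM (-0.99 ± 0.08), while ref6-3 lay at 8.86 to 9.32 CPM. SAG12 and SAG13 rose, as given above. The chlorophyll breakdown gene NYE1 (0.12) was not called.

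In the salicylate and defence list 4 of 14 tested genes were called higher and 5 lower, with or without ref6C replicate 3. These are 28.6% and 35.7%, beside 18.4% and 20.4% of all genes. PR1, a secreted defence protein, was at 0.0337, 0.117 and 0.0726 CPM in WT and at 0.477, 0.372 and 0.471 CPM in ref6C. It rose by 2.46 ± 0.49 log2 units from a very low level. The regulators EDS1 and PAD4, which act with SAG101, fell by 0.40 each. EDS1 was at 31.6, 30.7 and 29.8 CPM in WT and at 21.9, 23.3 and 24.4 CPM in ref6C. PBS3, of salicylate synthesis, fell by 0.63, whereas ICS1 (0.10) was not called. WRKY70, a transcription factor, fell by 0.72, and PR2, a glucanase, rose by 2.17.

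Of 20 photosynthesis genes 8 were called higher and 8 lower (40.0% each, beside 18.4% and 20.4% of all genes; 6 and 8 without ref6C replicate 3), with a median of 0.01; LHB1B1 was at 31.67, 29.85 and 24.99 CPM in WT and 16.9, 20.1 and 19.5 CPM in ref6C (-0.62 ± 0.08). Of 12 circadian clock genes 2 were called higher and 2 lower (16.7% each, beside the same 18.4% and 20.4%), with or without replicate 3. PRR3 was at 26.2, 26.5 and 27.8 CPM in WT and at 36.5, 38.2 and 35.6 CPM in ref6C (0.45 ± 0.04), and ELF4 rose by 0.36. Of 6 tested heat stress genes 1 was called higher and 1 lower (16.7% each), HSP90.1 (-0.29), also without it. Of 5 tested seed genes 2 were called higher and 1 lower (40.0% and 20.0%), and 1 and 1 without replicate 3. The albumin gene SESA4 was at 0.573, 0.439 and 0.581 CPM in WT and at 0.954, 1.49 and 1.45 CPM in ref6C (1.29 ± 0.27). Of 4 tested root markers IRT1, an iron transporter, was called lower (-0.75), with or without replicate 3.

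Genes that changed at least 2-fold lay next to each other more often than tested genes in general. Of 747 lower genes placed on the genome 116 (15.5%) had a lower gene as the next gene on either side, beside 4.96% of all tested genes. For higher genes the share was 26 of 268 (9.70%), beside 1.51%. Without ref6C replicate 3 the lower genes numbered 120 of 835 (14.4%, beside 5.54%), and the higher ones 15 of 206 (7.28%), beside 292 of 22503 tested genes. No chance test was made, and neighbours can share sequence or reads.

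The longest runs of lower genes held 4 genes. At chr1:25336235-25343243 AT1G67600, AT1G67610, AT1G67620 and AT1G67623 were all lower. AT1G67620, a Lojap-related protein, was at 16.6, 17.3 and 16.9 CPM in WT and at 2.69, 3.48 and 3.37 CPM in ref6C (-2.41 ± 0.09). The call of AT1G67623 was lost without ref6C replicate 1 (adjusted p = 0.052 by edgeR). At chr3:7044711-7055456 the run was PRK4, AT3G20200 (a protein kinase, -1.94), DELTA-VPE (a vacuolar processing protease, -2.09) and AT3G20220 (SAUR-like, -3.52). PRK4 and AT3G20200 overlap on the same strand.

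A run of 3 at chr3:8031341-8040152 held AT3G22730 (F-box, -1.35), HMT3 (-1.55) and AT3G22750 (a protein kinase, -2.82). HMT3, a homocysteine methyltransferase, was at 8.84, 8.54 and 8.90 CPM in WT, at 2.69, 3.04 and 3.26 CPM in ref6C and at 0.382 to 0.749 CPM in ref6-3. At chr3:9163340-9169301 the peptide hormone genes RALFL25 (-3.55) and RALFL26 (-4.79) and the terpenoid enzyme gene CYP82G1 (-1.33) fell. RALFL25 was at 1.21, 1.75 and 1.63 CPM in WT and at 0.102, 0.169 and 0.109 CPM in ref6C. The longest run of higher genes, AT2G07674, AT2G07751 and AT2G07675 at chr2:3268932-3270787, carries names of mitochondrial proteins. These genes may share reads with the mitochondrial genome, and AT2G07674 rested on replicate 3 (3.62 CPM against 0.818 and 0.372).

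Grouped by the description in the deposited table, 105 families had at least 20 tested genes. The highest shares of genes at least 2-fold lower were in 2 descriptions of invertase and pectin methylesterase inhibitors, with 6 of 25 (24.0%) and 8 of 41 (19.5%), beside 3.34% of all genes. APPB1 was at 4.92, 4.44 and 4.07 CPM in WT and at 0.0341, 0.135 and 0.145 CPM in ref6C (-5.37 ± 0.33). AT3G05610, of the same group, was at 10.02, 9.033 and 8.572 CPM in WT and at 0.818, 0.608 and 0.760 CPM in ref6C (-3.65 ± 0.15). TRAF-like proteins followed with 5 of 31 (16.1%). One of them, AT1G65370, was at 246, 229 and 239 CPM in WT and at 55.6, 57.8 and 56.5 CPM in ref6C (-2.07 ± 0.04, adjusted p = 9.8e-25 by edgeR), and in ref6-3 it was at 50.5 to 56.6 CPM. ABC-2 transporters and DHHC zinc fingers each had 3 of 22 (13.6%). The counts of lower genes in these families were the same without ref6C replicate 3. ABCG6, ABCG4 and ABCG16 fell by 2.03, 1.34 and 1.02 on the log2 scale.

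The highest share of genes at least 2-fold higher was among peroxidases, 5 of 41 (12.2%, beside 1.20% of all genes), with or without ref6C replicate 3. DOX1, a dioxygenase of fatty acids listed with them, was at 0.202, 0.497 and 0.327 CPM in WT and at 1.40, 1.25 and 1.27 CPM in ref6C (1.89 ± 0.32). Transposable element genes had 28 of 296 higher (9.46%) and 13 lower, but 12 higher and 20 lower of the same genes without replicate 3. Their excess of higher genes thus turned with that library. Lipid-transfer proteins had 4 of 56 (7.14%), also without it; AT2G37870 was at 0.169, 0.409 and 0.182 CPM in WT and at 1.06, 1.45 and 1.70 CPM in ref6C. Heavy metal transport proteins had 3 of 36 (8.33%) and DUF295 proteins 2 of 28, and each had 1 fewer without the library.

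The authors' deposited table holds its own statistics for ref6C against WT, made without ref6C replicate 3. Genes past an adjusted p of 0.05 in the authors' deposited table numbered 2427 higher and 3109 lower, and 69 and 470 of these changed at least 2-fold. Of 5482 genes called in the authors' deposited table and tested here, 5469 (99.8%) were also called by edgeR without replicate 3, all in the same direction. They make up 71.6% of the calls made here.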

How the data were processed

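Total RNA of closed buds was sequenced from a stranded kit. The authors deposited whole-number counts per gene. TAIR10 is the build, and RSEM 1.2.22, STAR and DESeq2 are the tools listed, without their roles, per the submitters' processing notes. The sources used here do not say how shared reads and strand were treated. The authors also deposited FPKM values, log2 fold changes and p-values. Per the file headers these log2 fold changes were of WT over mutant, so their sign was turned, and the authors' statistics were made without ref6C replicate 3. In the tables, 9 per-sample columns of other genotypes were not used.

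Of 33323 genes, 22411 passed edgeR's filter on low counts (22586 without ref6C replicate 3), and all 15 libraries shared 1 estimate of spread. Tests were edgeR 4.0.16 quasi-likelihood fits in R 4.3.3 (limma 3.58.1), with TMM scaling and Benjamini-Hochberg adjustment over all tested genes. DESeq2 1.42.0, other scaling, other filters, a replicate block and leaving out each library were alternatives. The depth of 27106757 to 34140165 counts per library in the 6 libraries limits precision for genes under 1 CPM. Replicates of a group differed by more than sampling noise (chi-square per degree of freedom 2.07 to 2.81).

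Members and gene lists were chosen with earlier results of these data known. Named genes were REF6, ELF6 and JMJ13, then the 12 largest gains and 12 largest losses, ranked by the smaller change of the fits with and without ref6C replicate 3. These had to be called in both fits, reach a mean of 1 CPM in the higher group and have groups that did not overlap. Within a list, members were named by their values, and these are not always the called members of lowest adjusted p. Of each family up to 3 members were named. Intervals and floors cover counting error only.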

Additional observations from a re-analysis of the deposited data

How the results depend on the processing

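The number of genes at least 2-fold higher in ref6C than in WT, 268, depended on the processing. It was 159 with a filter of 1 CPM in 3 libraries and 571 with no filter. It was 177 with DESeq2 without ref6C replicate 3, and 173 with only WT and ref6C fitted without that library; both settings were chosen after seeing the data. With DESeq2 without replicate 3, genes called higher numbered 2535 against WT and 2445 against ref6-3. DESeq2 on all libraries called 3172 higher and 3657 lower.

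Leaving out each library in turn gave 3435 to 3822 genes higher and 4055 to 4291 lower than WT, 206 to 287 at least 2-fold higher and 751 to 838 at least 2-fold lower, and for REF6 a log2 fold change against WT of -0.95 to -0.91. Against ref6-3 it gave 3037 to 3486 higher and 3226 to 3539 lower. Whether more genes were higher or lower than in ref6-3 turned without ref6C replicate 3 (3119 and 3539), without ref6-3 replicate 3 (3037 and 3532), with relative log expression size factors (3670 and 3933), with DESeq2 (2837 and 3040) and with no filter (3693 and 4091).

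Replicate numbers did not pair the samples: same-numbered deviations correlated at -0.107, -0.00145 and -0.0304. The fit with a replicate block called 4015 higher and 4470 lower, with 263 and 747 at least 2-fold and REF6 at -0.93, and 3746 and 3656 against ref6-3. Of 294 called genes followed through the alternatives, 67 were not called under at least 1 of them, 19 of these without ref6C replicate 3. DYT1 lost its call with DESeq2 without that library (adjusted p = 0.113). No fold change turned its sign under the alternatives run. The cause was not tested.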

Other observations

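Iron handling genes were looked at after values of IRT1 had been seen, so their counts are a description. Of 15 tested, 11 were lower and 2 higher in ref6C, with or without replicate 3. These are 73.3% and 13.3%, beside 20.4% and 18.4% of all genes. FRD3, a citrate transporter that moves iron into the xylem, was at 2.33, 2.31 and 2.25 CPM in WT and at 0.715, 0.372 and 0.579 CPM in ref6C (log2 fold change -2.04 ± 0.23). YSL1, a transporter of chelated iron, was at 50.5, 45.2 and 46.6 CPM in WT and at 31.9, 31.6 and 31.9 CPM in ref6C (-0.57 ± 0.04). The iron store gene FER1, a ferritin, was at 282, 282 and 266 CPM in WT and at 221, 228 and 222 CPM in ref6C. OPT3, of iron transport in the phloem, was higher by 0.38 log2 units.

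Nitrilase and camalexin genes were also chosen after values were seen, and XPL1 was looked at with them. The camalexin gene PAD3 rose by 1.71 log2 units from a very low level, and CYP71A13 rose as given above. NIT3 (-0.07), another nitrilase, was not called. NIT1, a neighbour of NIT2 and similar to it in sequence, was at 437, 426 and 443 CPM in WT and at 564, 550 and 547 CPM in ref6C (0.35 ± 0.02), and reads of the copies may be split between them. XPL1, a methyltransferase, was at 7.22, 5.26 and 3.71 CPM in WT and at 10.05, 71.06 and 10.61 CPM in ref6C, where replicate 2 stood far above the others.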
